A study of Mus musculus with 6 samples.

Results

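Carbonic anhydrases are zinc enzymes that interconvert carbon dioxide and water with bicarbonate and a proton. In the colon they supply the bicarbonate and protons that apical exchangers trade for chloride and sodium, and several of them are most abundant in the differentiated cells of the upper crypt and surface. The family divides by place in the cell into cytosolic enzymes (Car1, Car2, Car3 and Car13), enzymes of the plasma membrane with an outward-facing catalytic domain (Car4, Car9 and Car12) and related proteins without activity (Car8). These 8 genes were followed here through every probe set that the annotation of the Mouse Genome 430 2.0 array assigns to one of them and to no other gene, which gave 18 probe sets of 45101 on the array, for 8 of 18193 genes measured. A probe set is a small group of short probes read as a single value.

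The arrays compared colon epithelium of knockout mice (KO, vil-Cre-Bcl9-/-/Bcl9l-/-) with that of wild-type mice (WT), to ask what changes in healthy colon when the beta-catenin co-activators BCL9 and BCL9L are lost from the intestinal epithelium, where the villin promoter drives Cre. There were 3 KO arrays (KO 1 from a pool of 3 mice, KO 2 and KO 3 from pools of 2 mice each) and 3 WT arrays (WT 4, WT 5 and WT 6, each from a pool of 3 mice). All mice were 12 weeks old and on a mixed 129SvEv/C57BL/6/DBA/2 background, and the labels give Cre for the knockouts only, so effects of Cre and of the deletions cannot be told apart. The epithelium was released with EDTA and not sorted, and 30 ng of pooled RNA was amplified for each array. Values are log2 expression from RMA, a method that corrects background, equalises the arrays and summarises the probes of a set.

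Several facts of the whole series bear on these genes. All 10 epithelial markers examined lay above the median probe set, and their summed linear level was 78178 to 81097 in the KO arrays and 78435 to 79597 in the WT arrays. WT 6 stood apart: on the leading principal component, with 40.2% of the variance, it lay at 82.5 and the other arrays between -34.4 and 9.54. Its summed level of 12 measured B and plasma cell markers was 4502, against 459 to 837 in the other 5 arrays. The targeted genes do not settle the labels, because no label says which part of each gene was deleted. The brightest Bcl9 probe set read 7.09, 7.16 and 7.58 in KO arrays and 7.42, 6.85 and 7.24 in WT arrays, and the brightest Bcl9l probe set read 8.08, 8.27 and 8.11 in KO arrays and 7.84, 7.76 and 8.21 in WT arrays.

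Of the 8 genes, Car4, Car9 and Car12 have an entry in the RefSeq promoter table (build GRCm38.p6). For this reason the 250 bases before their annotated starts are shown. These are also the membrane enzymes, 1 of which, CA9, is a standard readout of hypoxia in human tumours. Capitals mark matches to a hypoxia-factor core (ACGTG or GCGTG, either strand) or to a TCF motif (CTTTGAT or CTTTGAA, either strand), TCF being the family of DNA-binding proteins through which beta-catenin and BCL9 act.
Car9, chr4:43506776-43507025, plus strand: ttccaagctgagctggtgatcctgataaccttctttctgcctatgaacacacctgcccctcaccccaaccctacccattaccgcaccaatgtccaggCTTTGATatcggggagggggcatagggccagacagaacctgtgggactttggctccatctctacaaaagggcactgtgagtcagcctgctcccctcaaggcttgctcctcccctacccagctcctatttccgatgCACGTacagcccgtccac
Car12, chr9:66713436-66713685, plus strand: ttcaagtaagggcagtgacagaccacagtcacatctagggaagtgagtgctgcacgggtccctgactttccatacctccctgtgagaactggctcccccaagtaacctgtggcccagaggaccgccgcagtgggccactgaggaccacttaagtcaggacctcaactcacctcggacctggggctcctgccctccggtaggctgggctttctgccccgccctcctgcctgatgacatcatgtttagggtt
Car4, chr11:84957504-84957753, plus strand: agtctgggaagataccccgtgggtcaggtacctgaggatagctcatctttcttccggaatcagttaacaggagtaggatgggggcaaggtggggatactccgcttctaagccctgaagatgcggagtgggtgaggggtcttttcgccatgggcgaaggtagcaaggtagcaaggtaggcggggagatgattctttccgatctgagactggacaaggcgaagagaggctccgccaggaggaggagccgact
The Car9 window holds 1 hypoxia-factor core, on the minus strand and beginning 18 bases before the start, and 1 TCF motif, on the plus strand and beginning 153 bases before it. The other windows hold neither. Among the same windows of 32851 promoters in the table, 38.6% hold a hypoxia-factor core and 7.48% a TCF motif, so a match by itself is common for the first and less so for the second. These are matches of letters and say nothing of binding.

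None of the 18 probe sets was called different between the genotypes. limma, fitted over 45037 probe sets with Benjamini-Hochberg adjustment, gave adjusted p = 0.991 to 0.999 for them, with 0 called, and it called 0 probe sets on the whole array (0%), the smallest adjusted p there being 0.326. At an unadjusted limma p under 0.05 there was 1 of the 18, a Car3 probe set lower in the knockouts, where 4.15% of all probe sets lay under that p in either direction and 1.85% with KO lower. For the same 1 probe set the KO and WT arrays did not overlap, against 9.69% of all probe sets in either direction and 4.76% with KO lower. A count of 1 in 18 is near these shares. That Car3 probe set lies below the median probe set. Of the 22519 probe sets below the median, 557 had such a p with KO lower, and 1475 did not overlap with KO lower. Differences were below 0 in 13265 of these 22519, against 9071 of the 22518 brighter probe sets. Of the 18 differences 12 were below 0 and 6 above. Those below 0 were 7 of the 12 above the median probe set and 5 of the 6 below it. The 18 had a median of -0.090 log2 units, beside a median of 0.0018 over all probe sets. Their median size regardless of sign was 0.15 log2 units for the 18 and 0.12 over all. In RNA from unsorted epithelium, fewer cells of a type and less RNA per cell cannot be told apart.

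**Figure D1:**
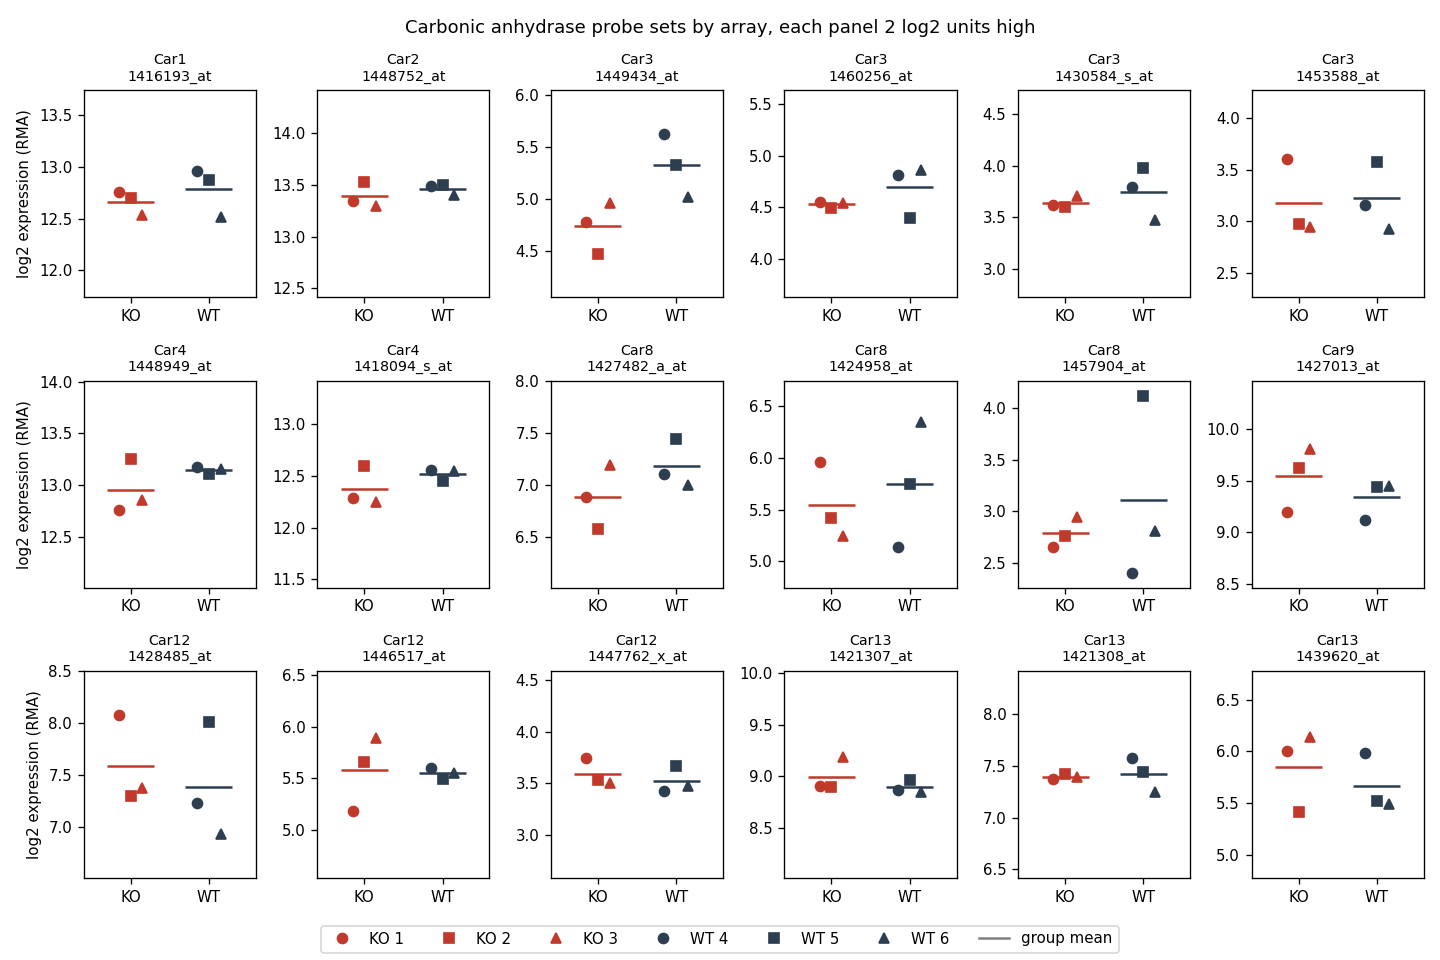
Log2 expression of the 18 carbonic anhydrase probe sets in each array, with KO arrays at the left of each panel (red), WT arrays at the right (dark blue) and a line at each group mean; every panel spans 2 log2 units around its own centre, and levels are not comparable between panels. The groups overlap in every panel except Car3 1449434_at, where the KO arrays read 4.47 to 4.96 and the WT arrays 5.02 to 5.63.

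Among the cytosolic enzymes, Car1 and Car2 gave high readings. Car1, an abundant enzyme of colonocytes and of red blood cells, read 12.76, 12.69 and 12.53 in KO 1, KO 2 and KO 3 and 12.96, 12.87 and 12.52 in WT 4, WT 5 and WT 6. KO 3 and WT 6 were the low arrays and WT 4 the highest, so the genotypes overlapped. The group means were 12.66 ± 0.12 in KO and 12.78 ± 0.23 in WT (SD, n = 3 each), a difference of -0.12 log2 units (SE 0.15, 95% interval -0.49 to 0.25, limma adjusted p = 0.991). On the linear scale the interval spans 0.714 to 1.19 times the WT level.

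Car2, the fast cytosolic enzyme found in many secretory and absorptive epithelia, was the steadiest of the 18 probe sets. It read 13.34, 13.53 and 13.30 in the KO arrays and 13.48, 13.50 and 13.40 in the WT arrays, which overlapped, with all 6 arrays inside 0.23 log2 units. Means were 13.39 ± 0.12 in KO and 13.46 ± 0.06 in WT (SD, n = 3 each), a difference of -0.07 (SE 0.12, 95% interval -0.35 to 0.20, limma adjusted p = 0.991), and the interval spans 0.786 to 1.15 times the WT level. Because Car1 and Car2 are also red cell enzymes, the red cell markers are given beside them. The summed level of 8 measured markers was 2445 to 2478 in KO arrays and 2404 to 4120 in WT arrays. WT 6 held the 4120. Hba-a2, the brightest marker, made up a large part of each sum and hardly varied (SD 0.049 over the 6 arrays). The sum therefore understates the rise of single markers in WT 6. Hbb-b2 read 10.85 in WT 6 and 7.17 to 7.93 in the other arrays, and Alas2 read 7.05 against 4.32 to 4.97. The remaining markers, all dim, were not highest in WT 6 by their brightest probe sets. For Slc4a1, among these, the dimmer probe sets were highest in WT 6. They read 4.51 and 3.33 there, against 3.28 to 3.73 and 2.93 to 3.13 in the other arrays. WT 6 was lowest of the WT arrays for Car1 and Car2, and the part of red cells in the readings was not tested.

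Car13, a cytosolic enzyme, has 3 probe sets and none separated the groups. The brightest, 1421307_at, read 8.91, 8.90 and 9.19 in the KO arrays against 8.87, 8.97 and 8.85 in the WT arrays, with KO 3 alone above the rest. Its difference was 0.10 (SE 0.13, 95% interval -0.20 to 0.40, limma adjusted p = 0.991). The other Car13 probe sets differed by -0.03 (SE 0.12) for 1421308_at and 0.19 (SE 0.23) for 1439620_at, so they did not share a sign.

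Car3, a low-activity enzyme best known from skeletal muscle, liver and fat, was dim, and all 4 of its probe sets lay below the median probe set. Probe set 1449434_at read 4.78, 4.47 and 4.96 in the KO arrays and 5.63, 5.33 and 5.02 in the WT arrays. Every KO array was below every WT array, by the narrow margin between KO 3 and WT 6. The means were 4.74 ± 0.25 in KO and 5.32 ± 0.31 in WT (SD, n = 3 each), a difference of -0.59 (SE 0.20, 95% interval -1.07 to -0.11), 0.665 times the WT level. Its unadjusted limma p was 0.023 and its adjusted p 0.991, and the exact two-sided permutation test gave p = 0.1, the smallest that 3 against 3 arrays allow. The other Car3 probe sets differed by -0.16 (SE 0.15) for 1460256_at, -0.11 (SE 0.15) for 1430584_s_at and -0.05 (SE 0.24) for 1453588_at, all with overlapping groups. No detection calls were used here, so whether Car3 was detected at all cannot be told from these readings.

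Markers of skeletal muscle and fat were summed beside Car3. The summed level of 10 skeletal muscle markers was 350.1 to 394.5 in KO arrays and 342.4 to 381.1 in WT arrays, and that of 5 measured adipocyte markers was 153.0 to 161.6 in KO arrays and 132.5 to 192.4 in WT arrays. Among the muscle markers Myl1, a myosin light chain, differed by 0.62 (SE 0.20) and Myh1, a myosin heavy chain, by -0.24 (SE 0.12). Each had no overlap between the genotypes, in opposite directions, where 9.69% of all probe sets had none in either direction. Neither passed the test. Both were dim, Myh1 at 2.48 to 2.94, and the other Myh1 probe sets differed by 0.02 (SE 0.13) and 0.08 (SE 0.13) with overlapping groups. Adipoq, the hormone that defines fat cells, read 2.40 to 2.47 in KO arrays and 2.39 to 2.79 in WT arrays. T cell and intraepithelial lymphocyte markers had differences below 0 in 10 of 11 measured genes, beside 8701 of 18193 over all genes, and 0 passed. In 4 of the 11 (Itgae, Il2rb, Nkg7 and Zap70) all KO arrays lay below all WT arrays, beside 878 of the 18193. These 4 also had an unadjusted limma p under 0.05, beside 322 of the 18193 with KO lower. Summed levels were 959 to 1266 in KO arrays and 1094 to 1618 in WT arrays. WT 6 held the 1618, whereas WT 4 and WT 5, at 1136 and 1094, lay below KO 3 at 1266. Cd247, the brightest marker and the only one with a difference above 0, made up a large part of each sum. Itgae, the integrin that holds these lymphocytes in the epithelium, read 7.24, 6.89 and 7.44 in KO arrays and 8.07, 7.85 and 7.88 in WT arrays. Its other probe set differed by -0.0047 (SE 0.11). The other Il2rb probe set differed by -0.15 (SE 0.19), and the other Zap70 probe sets by -0.06 (SE 0.12) and -0.14 (SE 0.19). In all of these the groups overlapped, and Nkg7 has 1 probe set. Over the 6 arrays the 11 markers had r from -0.67 (Cd247) to 0.93 (Itgae) with Car3 1449434_at, with a median of 0.55, and the part of these cells in the Car3 reading was not tested.

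**Figure D2:**
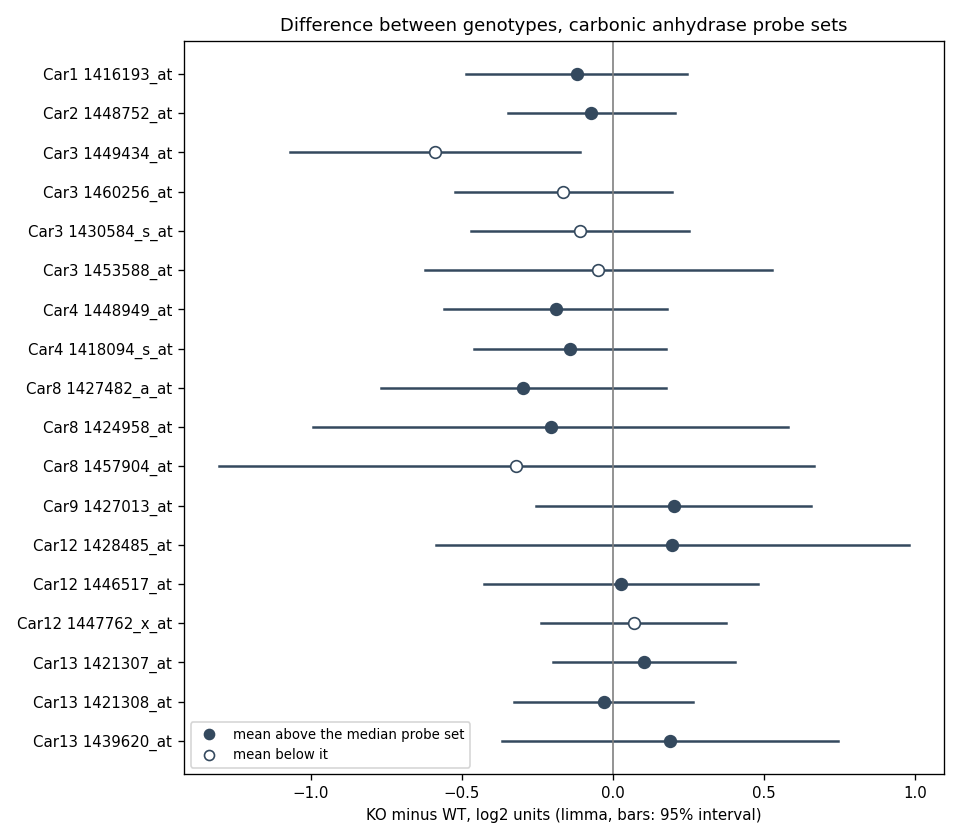
KO minus WT difference of each carbonic anhydrase probe set in log2 units with its 95% interval from limma; filled points are probe sets with a mean above the median probe set of the array, open points those below it. Apart from Car3 1449434_at, at -0.59, every interval includes 0, and the intervals are narrowest for Car2 and widest for Car8 1457904_at.

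Of the membrane enzymes, Car4 is held by a lipid anchor on the apical surface of colonocytes. Its brightest probe set, 1448949_at, read 12.76, 13.26 and 12.85 in the KO arrays and 13.18, 13.10 and 13.16 in the WT arrays. The WT arrays lay within 0.073 log2 units of each other, whereas KO 2 was above them all and KO 1 and KO 3 below them all. Means were 12.96 ± 0.26 in KO and 13.15 ± 0.04 in WT (SD, n = 3 each), a difference of -0.19 (SE 0.15, 95% interval -0.56 to 0.18, limma adjusted p = 0.991), and the interval spans 0.679 to 1.13 times the WT level. The other probe set, 1418094_s_at, placed the KO arrays in the same way, at 12.29, 12.59 and 12.24, against 12.56, 12.45 and 12.54 in the WT arrays, and differed by -0.14 (SE 0.13). Over the 6 arrays the Car4 probe sets had a Pearson r of 0.96, the closest match between any pair of probe sets of the same member.

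Car9, a transmembrane enzyme induced by low oxygen in many tissues, has 1 probe set. It read 9.19, 9.62 and 9.81 in the KO arrays against 9.12, 9.44 and 9.45 in the WT arrays. KO 3 was the highest and WT 4 the lowest, with KO 1 among the WT values. The means were 9.54 ± 0.31 in KO and 9.34 ± 0.19 in WT (SD, n = 3 each), a difference of 0.20 (SE 0.19, 95% interval -0.25 to 0.66, limma adjusted p = 0.991), and the interval spans 0.839 to 1.58 times the WT level.

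Car12, also a transmembrane enzyme, had the widest spread within genotypes among the brightest probe sets of the 8 genes (SD 0.43 in KO and 0.56 in WT, n = 3 each). Its brightest probe set, 1428485_at, read 8.08, 7.30 and 7.38 in the KO arrays and 7.23, 8.01 and 6.92 in the WT arrays. KO 1 and WT 5 were high and the other arrays lower, so a spread of 1.16 log2 units crossed the genotypes, and the difference of 0.20 (SE 0.33, 95% interval -0.59 to 0.98, limma adjusted p = 0.991) lay well inside it. The dim probe set 1447762_x_at also had KO 1 and WT 5 highest (Pearson r = 0.93 over the 6 arrays) and differed by 0.07 (SE 0.13). Probe set 1446517_at did not follow them, with KO 1 lowest at 5.18 (r = -0.60 to the brightest), and differed by 0.03 (SE 0.19). No source used here says which of these reads the main Car12 transcript.

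Car8, which lacks the active site of the enzymes and is known in Purkinje neurons as a partner of an inositol trisphosphate receptor, had differences below 0 in all 3 probe sets, none of them called. The brightest, 1427482_a_at, read 6.89, 6.57 and 7.19 in the KO arrays and 7.10, 7.44 and 6.99 in the WT arrays. KO 2 was lowest and WT 5 highest, and KO 3 exceeded WT 4 and WT 6. The means of 6.88 ± 0.31 in KO and 7.18 ± 0.23 in WT (SD, n = 3 each) differed by -0.30 (SE 0.20, 95% interval -0.77 to 0.18, limma adjusted p = 0.991). The other Car8 probe sets differed by -0.21 (SE 0.33) for 1424958_at, which was highest in WT 6 at 6.35, and by -0.32 (SE 0.41) for the dim 1457904_at, where WT 5 alone read 4.12 and the other 5 arrays 2.41 to 2.95. Over the 6 arrays the 11 lymphocyte markers had r from -0.74 (Cd247) to 0.93 (Gzmb, a granule protease of cytotoxic cells) with 1427482_a_at, with a median of 0.45, and the part of those cells in the reading was not tested. These values are of that probe set alone, which had r = -0.04 (Spearman -0.26) with 1424958_at and 0.65 (Spearman 0.60) with 1457904_at.

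Car1, Car2, Car3 and Car13 lie side by side on chromosome 3 in the order Car13, Car1, Car3 and Car2, with 2 pseudogenes and 1 noncoding RNA gene among them in RefSeq. Their readings did not all rise and fall together. Over the 6 arrays the brightest probe sets had a Pearson r of 0.59 for Car1 with Car2, 0.57 for Car1 with Car3, 0.16 for Car2 with Car3 and -0.56 for Car2 with Car13. Probe sets of the same gene also diverged, with r from -0.48 to 0.61 among those of Car3. For Car13 1421307_at with 1421308_at r was -0.0035. Whether the genes of the cluster vary together therefore cannot be told from these values. The closest pair among all 8 genes was Car2 with Car4, on another chromosome, at r = 0.85 (Spearman 0.77), and the most opposed was Car1 with Car9 at r = -0.71 (Spearman -0.77). These are descriptions of 6 arrays that share one amplification method and one normalization, with 28 pairs examined.

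**Figure D3:**
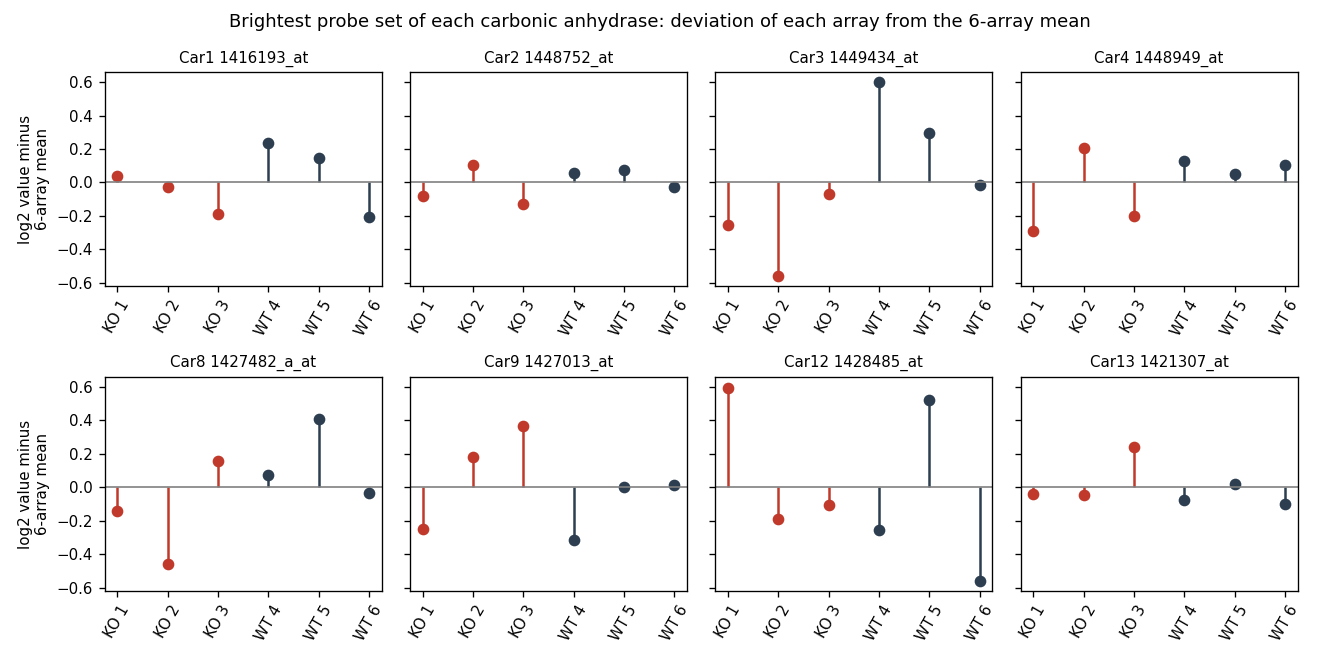
Deviation of each array from the 6-array mean, in log2 units, for the brightest probe set of each carbonic anhydrase, with KO arrays (red) left of WT arrays (dark blue). KO 2 is high for Car2 and Car4 while KO 1 and KO 3 are low, Car12 is high in KO 1 and WT 5, and only for Car3 do all KO arrays lie below all WT arrays.

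The genes whose brightest probe set followed a member most closely were ranked by Pearson r over the 6 arrays, among genes above the median probe set that varied at least as much as the member. Picked as the highest of 932 to 10100 candidates a gene, such values are high by selection. For Car1, out of 6594 candidates, they were Mageh1 (r = 1.00), Ttll1, a tubulin-modifying enzyme (0.99), and Txnip, the thioredoxin-interacting protein (0.98), and each ranked the 6 arrays in exactly the order of Car1. Txnip read 11.25, 11.04 and 10.89 in the KO arrays and 11.58, 11.49 and 10.86 in the WT arrays. For Car2 they were Dleu2 (0.97), Tmem132c (0.96) and Il6st, the shared receptor of the interleukin 6 family (0.96). For Car4 they were Cul5, a scaffold of ubiquitin ligases (0.98), Gm26910 (0.97) and Gpatch4 (0.97), but without KO 1 and KO 3, the arrays farthest from the median, r was 0.57 for Cul5.

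For Car8 the closest were Ccl5, a chemokine made by T cells (0.98), Pdcd10 (0.97) and Haus7 (0.97). Ccl5 read 8.39, 7.52 and 9.06 in the KO arrays and 8.89, 9.58 and 8.90 in the WT arrays, in nearly the order of Car8 1427482_a_at. For Car9 they were Tapbpl, a chaperone of peptide loading (0.97), Zfp267 (0.96) and Kdm8 (0.96), none of them in the hypoxia list. The Car12 set was 2310009B15Rik (0.98), Pogk (0.98) and Zfp758 (0.96), out of 932 candidates. The Car13 set was Ikbkg, a regulatory subunit of the IKK complex (0.99), Asf1b, a histone chaperone (0.99), and Ncapd2, a condensin subunit (0.99). Without KO 3 and WT 5 these values were 0.72 for Ikbkg, 0.76 for Asf1b and 0.20 for Ncapd2, and without KO 1 and WT 5 the value of Zfp758 with Car12 was 0.61.

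The rest of the family, read through the brightest probe set per gene in the same fit, also gave no call. Among the other 8 carbonic anhydrases 0 passed in either direction, with a median difference of -0.051, beside 0.0096 over 18193 genes, of which 0 passed (0%) and 4.18% had an unadjusted limma p under 0.05. Car10, a family member without activity, had the smallest unadjusted p of the 8. It read 3.01, 2.96 and 3.32 in the KO arrays and 3.22, 3.12 and 3.45 in the WT arrays, which overlap. Differences were 0.14 (SE 0.21) for Car11, which also lacks activity, -0.06 (SE 0.12) for the mitochondrial enzyme Car5a and -0.08 (SE 0.17) for Car15. In this set 2 of 8 genes lay above the median probe set, compared with 7 of the 8 followed here.

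Transporters that use bicarbonate or protons were examined as the partners of these enzymes. Of 13 measured, 0 passed in either direction, with a median of 0.011. Slc16a1, which carries lactate and short-chain fatty acids together with protons, read 11.43, 11.51 and 11.43 in the KO arrays and 11.75, 11.72 and 11.61 in the WT arrays. The groups do not overlap, and the difference of -0.24 (SE 0.11) had limma adjusted p = 0.991. Slc9a8, a sodium-proton exchanger, also had no overlap and differed by -0.19 (SE 0.10). Its next brightest probe set had no overlap in the opposite direction and differed by 0.09 (SE 0.10). The dimmer Slc9a8 probe sets overlapped, at 0.22 (SE 0.23) and -0.0029 (SE 0.16). Slc4a1, the anion exchanger of red cells, had no overlap either and differed by -0.21 (SE 0.11) at dim readings of 4.50 to 4.84. By the brightest probe set of each gene, these 3 were the transporters whose KO arrays all lay below the WT arrays. That is 3 of 13, where 4.76% of all probe sets did so. The other probe sets of Slc16a1 and Slc4a1 had differences below 0 with overlapping groups. Atp12a, the proton-potassium pump of the colon, differed by 0.35 (SE 0.23), with WT 5 low at 11.59.

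Surface colonocyte genes had a median of -0.0030 over 15 measured, with 0 passing. Guca2a, the precursor of guanylin, read 12.78, 12.42 and 12.02 in the KO arrays and 13.05, 13.28 and 12.20 in the WT arrays, a difference of -0.43 (SE 0.32). Cyp2c55, a cytochrome P450, read 9.48, 9.05 and 7.38 in the KO arrays and 10.38, 11.49 and 6.84 in the WT arrays, with a spread inside each genotype far above the difference of -0.93 (SE 1.19). Both were lowest in KO 3 and WT 6, as Car1 was. Slc37a2, a sugar-phosphate transporter, differed by 0.17 (SE 0.18) and Ms4a8a by 0.14 (SE 0.16).

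Hypoxia targets were set beside Car9. Their median was 0.059 over 15 genes, with 8 above 0 and 7 below and 0 passing. Pdk1, which restrains pyruvate entry into mitochondria, read 9.55, 9.48 and 9.92 in the KO arrays and 9.40, 8.79 and 9.15 in the WT arrays, with no overlap, and differed by 0.53 (SE 0.20, limma adjusted p = 0.991, exact permutation p = 0.1). Its other probe sets differed by 0.49 (SE 0.24) with overlap, 0.32 (SE 0.13) without and, for the dimmest, -0.15 (SE 0.49) with overlap. Egln3, an oxygen-sensing prolyl hydroxylase, differed by 0.38 (SE 0.17), and P4ha1 and Ankrd37 by -0.20 (SE 0.12) and -0.25 (SE 0.16). Car9 had r = 0.84 with Adm and -0.54 with Higd1a, the ends of the range for the 15 genes, over 6 arrays. The posterior Hox genes, which mark position along the gut, had a median of 0.014 over 6 genes with 0 passing. Hoxb13 read 12.35 to 12.58 in KO arrays and 12.16 to 12.42 in WT arrays.

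**Figure D4:**
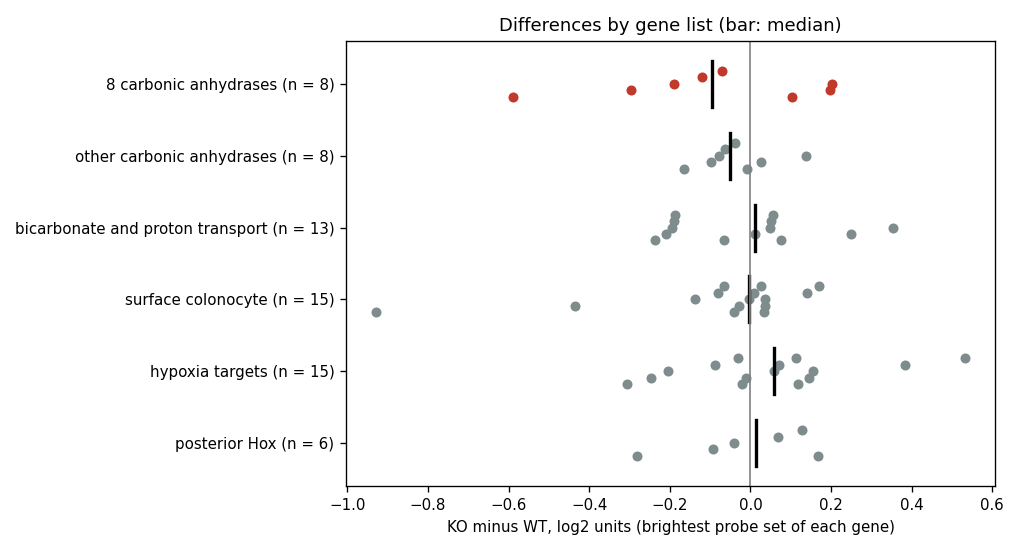
KO minus WT difference in log2 units for the brightest probe set of each gene, for the 8 carbonic anhydrases (red) and 5 lists of related genes, with a bar at each median; lists of other cell types are not plotted. The plotted medians lie between -0.096 for the 8 carbonic anhydrases and 0.059 for the hypoxia targets, and no gene shown passed the test.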

How the data were processed

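RNA from 6 pools of mouse colon epithelium was hybridised to Mouse Genome 430 2.0 arrays. The deposited values are log2 expression values that the authors made with RMA (version not given), per the submitters' processing notes; the scale was read from the values. No scanner file, scan date or detection call was used, so no batch was tested and no probe set was left out as dim. Array medians were 5.44 to 5.58.

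Genes came from the platform annotation (34945 probe sets with 1 symbol, 932 with several, 9160 with none); 64 control probe sets were left out. KO was compared with WT with limma 3.58.1 in R 4.3.3 (lmFit, eBayes, two-sided, no covariate) over 45037 probe sets, with Benjamini-Hochberg adjustment and a threshold of 0.05. The fit was tested on simulated data with independent noise and added changes larger than any member difference. That test says nothing of the power for differences of the size seen here. The precision is limited by 3 arrays per group, and p-values measure the spread between pools. Gene lists use each gene's brightest probe set and are described by counts and medians; list genes without a probe set of their own were not analysed here. Besides all probe sets of the members, the text names up to 4 genes of a list by unadjusted p and the 3 genes most like a member. Gzmb, Cd247, Adm, Higd1a and, in the closing section, Slc9a3, Slc26a6, Aqp8, Slc6a14 and Tmigd1 are named outside it, with their values known. The members and lists were chosen with earlier results of these data known. Alternatives were another unit of the fit, variance trend, array weights, cyclic loess, filters and leaving out each array.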

Additional observations from a re-analysis of the deposited data

How the results depend on the processing

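No carbonic anhydrase probe set was called under any of the 13 alternatives (smallest limma adjusted p = 0.768, for Car3 1449434_at without WT 6), and under the 3 that keep all arrays and can change a difference (array weights, cyclic loess and averaging by gene) 44 of 44 differences kept their sign. The other 4 change only the spread or the adjustment. Leaving out 1 array, 95 of 108 did. The ranges of those that did not were -0.24 to 0.0052 for Car3 1430584_s_at, -0.26 to 0.13 for Car3 1453588_at, -0.51 to 0.096 for Car8 1424958_at, -0.67 to 0.18 for Car8 1457904_at, -0.050 to 0.51 for Car12 1428485_at, -0.13 to 0.22 for Car12 1446517_at, -0.0056 to 0.14 for Car12 1447762_x_at and -0.12 to 0.047 for Car13 1421308_at. The cause was not tested. Car1 ran from -0.25 without WT 6 to -0.031 without WT 4, and Car3 1449434_at from -0.74 without WT 6 to -0.44 without WT 4. Over the whole array 0 to 3 probe sets were called when 1 array was left out, the 3 (Lrg1, Rgcc and Pla2g2a, named after their values were seen) without WT 6, and 0 under the other alternatives. No paired analysis was possible because the KO and WT arrays share no replicate number. With 3 arrays a group, the unadjusted 95% interval of a typical member reached 0.41 log2 units either side of its difference; a call after adjustment needs a larger difference or a smaller spread.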

Other observations

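Transport and surface genes showed array-to-array patterns that crossed the genotypes and ran both with and against single carbonic anhydrases. The genes given are the ends of each list's range, picked by their r over the 6 arrays, and they are descriptions. Among 15 surface colonocyte genes, r with Car1 ran from -0.95 (Ms4a8a) and -0.94 (the water channel Aqp8) to 0.93 (Cyp2c55 and Guca2a), with a median of -0.31. Among 13 transporters it ran from -0.70 (Atp12a) to 0.84 (the sodium-proton exchanger Slc9a3), with a median of 0.44. Aqp8 read 10.71, 10.78 and 10.98 in the KO arrays and 10.59, 10.77 and 10.99 in the WT arrays, so KO 3 and WT 6, the arrays lowest for Car1, were its highest. With Car12 1428485_at, r ran from -0.90 (the amino acid transporter Slc6a14) to 0.82 (Tmigd1) in the surface list, with a median of -0.41. Among the transporters r with 1428485_at ran from -0.67 (Atp12a) to 0.92 (the anion exchanger Slc26a6), with a median of 0.0052. Slc26a6 was dim, at 4.03 to 4.44. Car12 1446517_at had r = -0.60 with 1428485_at. Tmigd1, a membrane protein of the intestinal epithelium, read 9.23, 7.32 and 8.85 in the KO arrays and 7.85, 9.74 and 7.93 in the WT arrays, so that KO 1 and WT 5, the arrays highest for Car12, were also its highest.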
